A study of Mus musculus with 4 samples.

Results

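E2A binding at the loci of 6 transcription regulators of the T lineage, Bcl11b, Satb1, Tox, Tox2, Myb and Gfi1, was described from the E2A ChIP-Seq peaks of DP and iNKT thymocytes. A locus was taken as the gene body and the sequence around it up to 1 Mb on each side, ending at the body of the next protein-coding gene, and a peak belonged to it when its midpoint fell inside. These loci held 115 of the 17532 DP peaks and 11 of the 1516 iNKT peaks. Satb1 had the most, with 42 DP and 6 iNKT peaks, and Bcl11b followed with 25 and 1. Myb had 14 and 2, Gfi1 11 and 1, and Tox2 10 and 1. This order depended on the limits of the loci: within 100 kb of the gene body Satb1 and Myb had 14 DP peaks each and Bcl11b 12, with 0 iNKT peaks at Satb1, and in gene bodies alone Bcl11b had 8 DP peaks and Satb1 6. Tox had 13 DP peaks and was the locus with no iNKT peak. A peak between 2 genes belonged to the locus of each by this rule, so the count of a locus did not assign a peak to a target gene.

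Cells came from L-DKO mice. They carry floxed alleles, Id2 f/f with Id3 f/f, and LckCre+, so that Cre driven by the Lck promoter removes Id2 and Id3 in thymocytes, and both cell types lack these Id proteins. Wild-type thymocytes were not analysed here. The mice were 3 to 5 weeks old and were C57BL/6 or hybrids of C57BL/6 and 129, and each sample pooled cells of 3 to 4 mice. DP cells were sorted as CD1dTet- CD4+ CD8+ and iNKT cells as CD1dTet+ TCRβ+, and each cell type gave 1 library precipitated with anti-E2A and 1 input library. The comparison addressed where E2A was bound at these genes before and after selection by CD1d. With 1 E2A library per cell type there was no replicate error, so no p-value is given, and the identity of the sorted cells could not be checked from peak lists, which carry no expression.

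Id proteins lack a DNA-binding domain and hold E proteins such as E2A away from DNA, so that their loss frees E2A to bind its E-box sites, of which CAGGTG is the preferred form and reads CACCTG on the other strand. Among the genes described, Bcl11b encodes a zinc finger protein needed for commitment to the T lineage and for the maintenance of T cell identity. Satb1 encodes a chromatin organiser abundant in DP thymocytes. Tox and Tox2 encode HMG box proteins, and Tox is needed for the development of CD4 lineage T cells. Myb encodes an activator needed by DP thymocytes, including for iNKT cell development, and Gfi1 encodes a zinc finger repressor used by early lymphoid cells. Bcl11b is also known for enhancers that lie far downstream of the gene in a desert without coding genes.

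The deposited score of a peak is 10 times the negative log10 of its MACS p-value, and no peak of either list scored below 50, a p-value of 1e-05. The DP list has a plateau of 258 peaks at 3100, all given rank 27, with 26 peaks above them. So many equal values may mark a limit of the p-value, so peaks at 3100 were not taken to be weaker than the 26. Depth was not given by the lists, and a score rises with depth, so scores were ranked within a list and were not compared between lists. A higher score also cannot tell more bound cells from more binding per cell.

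Sites bound in DP cells accounted for 9 of the 11 iNKT peaks, taking a shared base as overlap, or 81.8% (52.3 to 94.9 by the 95% Wilson method) beside 69.3% over the whole iNKT list. Intervals here cover counting error only, and peaks of the same locus are not independent. The sequences below are from these 9 shared peaks, which carry the overlap between the cell types, with 100 bases of the plus strand of mm9 around the E-box nearest the midpoint of the iNKT peak among CAGGTG and its reverse complement. Capitals mark these sites and the related E-box CAGCTG.
Bcl11b, chr12:109307762-109307861: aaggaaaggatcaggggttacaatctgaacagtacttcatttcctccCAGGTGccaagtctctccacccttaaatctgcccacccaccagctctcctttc
Satb1, chr17:51548016-51548115: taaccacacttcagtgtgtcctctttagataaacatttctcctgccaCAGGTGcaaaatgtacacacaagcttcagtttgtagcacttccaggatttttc
Satb1, chr17:52421716-52421815: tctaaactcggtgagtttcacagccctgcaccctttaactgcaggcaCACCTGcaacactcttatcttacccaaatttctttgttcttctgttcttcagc
Satb1, chr17:52490615-52490714: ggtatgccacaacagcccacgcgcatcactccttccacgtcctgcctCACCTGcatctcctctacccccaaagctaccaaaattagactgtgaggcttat
Satb1, chr17:52740669-52740768: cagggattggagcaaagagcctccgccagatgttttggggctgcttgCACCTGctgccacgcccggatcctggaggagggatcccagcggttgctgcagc
Tox2, chr2:162929170-162929269: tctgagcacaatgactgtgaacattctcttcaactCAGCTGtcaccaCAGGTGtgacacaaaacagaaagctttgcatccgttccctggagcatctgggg
Myb, chr10:20812838-20812937: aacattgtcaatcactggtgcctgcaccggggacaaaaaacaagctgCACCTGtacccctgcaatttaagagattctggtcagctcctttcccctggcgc
Myb, chr10:20943507-20943606: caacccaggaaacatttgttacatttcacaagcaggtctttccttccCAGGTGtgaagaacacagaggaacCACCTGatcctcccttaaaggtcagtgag
Gfi1, chr5:108147070-108147169: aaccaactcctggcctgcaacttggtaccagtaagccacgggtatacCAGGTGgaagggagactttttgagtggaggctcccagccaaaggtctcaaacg

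All 9 of these iNKT peaks held CAGGTG on either strand within their limits, and the E-box shown lay within 100 bp of the midpoint in 7 of them. The exceptions were the Bcl11b peak, where it lay 183.5 bp away, and the Tox2 peak, at 242.5 bp. The remaining 2 iNKT peaks, both at Satb1, overlapped no DP peak and held neither E-box, so that 9 of the 11 held CAGGTG, beside 80.9% of all iNKT peaks over their whole length. Over the whole list, 52.9% of iNKT peaks had CAGGTG in the 200 bp at the midpoint, against 63.6% (35.4 to 84.8) of the 11. With CAGCTG counted as well, the shares were 65.4% and 81.8%.

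Bcl11b (ENSMUSG00000048251.9) lies on the minus strand of mm9 at chr12:109148613-109241812. Its locus ran over 617 kb from the end of the 3110018I06Rik gene model to Setd3. Of its 25 DP peaks, 8 lay in the gene body, 15 downstream and 2 upstream, with scores from 56.3 to 2939 and a median of 173. The strongest 3, the members of this locus scoring 1000 or more, all lay in introns. The highest, from 109165733 to 109170134, was 4402 bp wide, scored 2939, ranked 319 in the DP list and lay 73.9 kb downstream of the start site. The others, from 109202223 to 109204204 and from 109163926 to 109165656, scored 1611 and 1274 and lay 38.6 and 77.0 kb downstream. None of these overlapped an iNKT peak.

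Promoter peaks of Bcl11b scored below these intronic ones. A peak in an intron from 109239994 to 109240973 scored 199 and had its midpoint 1.33 kb inside the gene, with its nearer edge within 1 kb of the start site. A peak from 109242211 to 109242889, with its midpoint 0.738 kb upstream, scored 87.1 and ranked 12041 of 17532.

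The only iNKT peak of the locus was not among the strong intronic sites. It ran from 109307603 to 109308387, with its midpoint 66.2 kb upstream of the start site, scored 101 and ranked 542 of 1516. The DP peak it overlapped, from 109307493 to 109308358, scored 355 and ranked 4475, so the site that the 2 lists shared was outranked by 7 DP peaks of the same locus without an iNKT peak.

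Downstream of Bcl11b, 8 DP peaks fell within 36.4 kb, from 218 to 255 kb past the start site, with scores from 129 to 648. Of these, 7 had their midpoints in the non-coding gene model Gm15208, a processed transcript of the minus strand at chr12:108982346-109022251. The most distal DP peak of the locus, from 108734857 to 108735577, scored 114 and lay 507 kb downstream. The start site of Bcl11b was the nearest protein-coding start for 21 of the 25 DP peaks.

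The 3110018I06Rik model that ended this locus is 1005 bp long, at chr12:108726842-108727846, is annotated as protein-coding in GENCODE M1, and had no match in the RefSeq gene table (GRCm38.p6). Past it, and still within 1 Mb of the Bcl11b body, lay 25 more DP peaks and 1 more iNKT peak, which would bring Bcl11b to 50 DP peaks against the 42 of Satb1, scores 50.1 to 2947 with a median of 219 for the DP peaks. These do not count among the members by the rule used. Within them, 10 DP peaks fell in 39.9 kb, from 845 to 885 kb downstream of the Bcl11b start site, and 4 of the 10 scored above 1000. The peaks of this group from 108376200 to 108378433 and from 108394748 to 108399691 scored 2947 and 2592, and ranked 317 and 426. The 25 peaks within the locus had no group of that strength outside the gene body, where the highest score was 648.

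The peak that scored 2947 was the distal site also found in iNKT cells, as the peak from 108376792 to 108378039, which scored 51.5 and ranked 1437 of 1516. Its midpoint lay 864 kb downstream of the Bcl11b start site. The sequence around its nearest E-box is shown, since it was the shared site with the highest DP score across the whole desert.
Bcl11b desert, chr12:108377480-108377579: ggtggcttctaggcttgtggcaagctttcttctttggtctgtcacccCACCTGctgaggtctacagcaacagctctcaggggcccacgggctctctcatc

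**Figure D1:**
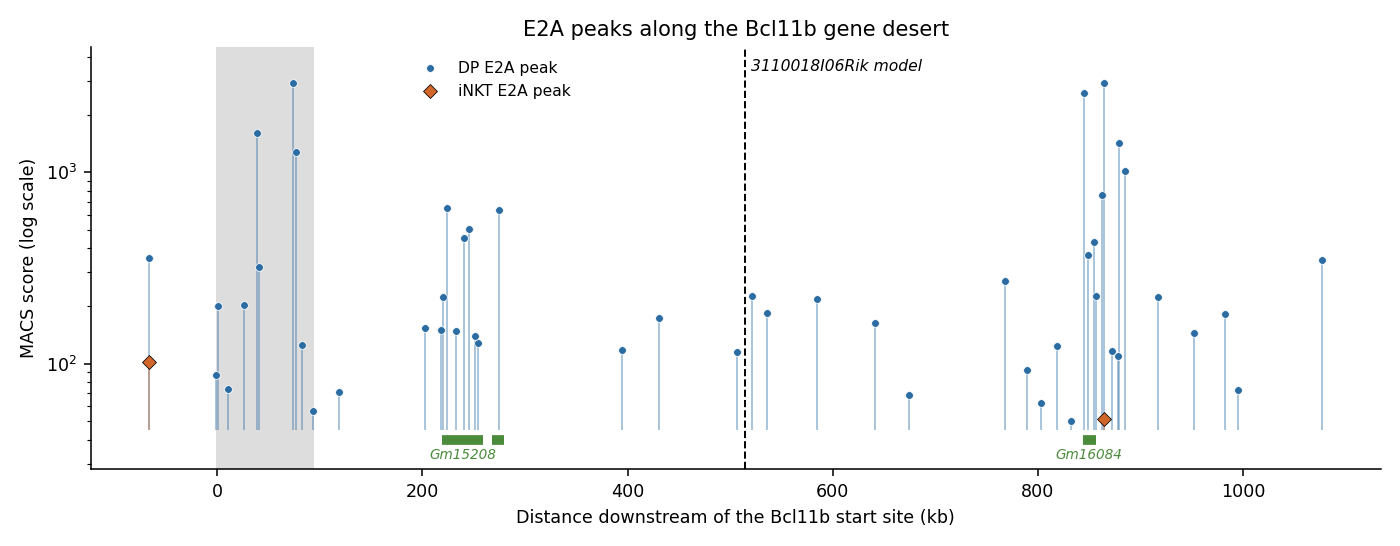
MACS score (log scale) of each E2A peak against the distance of its midpoint downstream of the Bcl11b start site in kb, for DP peaks (circles) and iNKT peaks (diamonds). The grey area is the gene body, the dashed line the 3110018I06Rik model that ended the locus, and the bars at the foot non-coding gene models (Gm15208 with 4930465M20Rik to its right, and Gm16084). The scores of 1000 or more fall in the gene body and in the group from 845 to 885 kb, and the 2 iNKT peaks lie 66.2 kb upstream and 864 kb downstream.

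Satb1 (ENSMUSG00000023927.7) lies on the minus strand at chr17:51875512-51972615. Its locus was 1546 kb long, between Tbc1d5 and Kcnh8, and only 0.877% of protein-coding loci were longer. Of its 42 DP peaks, 31 lay upstream, 5 downstream and 6 in the gene body, and 29 lay more than 100 kb from the start site. Scores ran from 56.1 to 3219 with a median of 344, and 8 peaks scored 1000 or more, all of them outside the gene body. The Satb1 start site was the nearest protein-coding start for 25 of the 42 DP peaks and for none of the 6 iNKT peaks, which were nearer the start of Tbc1d5 or Kcnh8.

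The highest DP score listed at the 6 loci belonged to the most distal of the Satb1 peaks in that list. It ran from 52739990 to 52742059 and scored 3219, rank 3 of 17532, a place that does not set it above the peaks at 3100, of which Satb1 had 3. Its midpoint lay 768 kb upstream of the Satb1 start site, on the side of Kcnh8. The iNKT peak that overlapped it, from 52740061 to 52741403, scored 108 and ranked 495 of 1516. This stretch held 3 copies of CAGGTG, counting both strands, in the 200 bp at the midpoint of the iNKT peak.

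Strong Satb1 peaks gathered 445 to 484 kb upstream, where 7 DP peaks fell within 38.2 kb and 3 of them scored 1000 or more. The peak from 52420304 to 52423588 scored 3100 and overlapped the iNKT peak from 52421009 to 52422385, which scored 62.8 and ranked 1026. The peak from 52454880 to 52457384 also scored 3100 but overlapped no iNKT peak. Its E-box is printed because it was the highest DP score at Satb1 without an iNKT peak.
Satb1, DP list alone, chr17:52456159-52456258: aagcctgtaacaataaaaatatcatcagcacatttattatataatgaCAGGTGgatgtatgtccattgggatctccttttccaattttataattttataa

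The other shared Satb1 sites lay on opposite sides of the gene. Downstream by 425 kb, the DP peak from 51545864 to 51548869 scored 3100 and the iNKT peak from 51547387 to 51548612 scored 151, with rank 313. Upstream by 518 kb, the DP peak from 52489746 to 52491651 scored 1108, with rank 1471, and the iNKT peak from 52490099 to 52491410 scored 65.8, with rank 960. The iNKT peaks without a DP peak lay in the lower part of their list: the peak from 51396465 to 51397194 scored 62.5 at rank 1033, and that from 52560446 to 52561030 scored 55.6 at rank 1240.

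At the promoters of Satb1, which has 15 annotated transcript starts, 4 DP peaks and no iNKT peak were found. A broad peak of 4651 bp from 51969636 to 51974286 covered the 5′ end of the gene body, scored 763, and had its midpoint 0.654 kb inside the gene in untranslated sequence. The peak from 51952506 to 51954207, at an internal transcript start in an intron, scored 659. The remaining promoter peaks scored 169 and 79.9.

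Tox (ENSMUSG00000041272.5) lies on the minus strand at chr4:6613500-6918704, the longest of the 6 gene bodies at 305 kb. Its locus was almost as long as that of Satb1, at 1537 kb, but held 13 DP peaks, with a median score of 96.4 and only 1 score of 1000 or more. The peak density was 0.846 DP peaks per 100 kb at Tox and 2.72 at Satb1. No iNKT peak had its midpoint in the Tox locus, as for most genes: 7.98% of protein-coding loci had one.

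The highest Tox peak, from 6434894 to 6436071, scored 1323 and ranked 1176. It lay 483 kb downstream of the Tox start site, had its midpoint in the gene model Gm11803, and was nearer the start site of Nsmaf, so that the distance alone gives it to the neighbour. Upstream of Tox, the peak from 7072338 to 7073637 scored 835 at 154 kb. Within the body, the strongest was an intronic peak from 6828091 to 6830207, which scored 768 at 89.6 kb. The promoter peak from 6917515 to 6918813 scored 189 and ranked 7147, with its midpoint 0.54 kb inside the gene. The most distal DP peak scored 66.1 at 507 kb downstream.

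The site of the highest Tox score is printed because it held both E-box forms close together.
Tox, DP list alone, chr4:6435390-6435489: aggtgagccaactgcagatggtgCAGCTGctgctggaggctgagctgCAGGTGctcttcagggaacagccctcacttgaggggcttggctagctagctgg

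Tox2 (ENSMUSG00000074607.5) lies on the plus strand at chr2:163028861-163149906, in a locus of 248 kb between Gtsf1l and Jph2. Its 10 DP peaks split evenly between the gene body and the upstream side, none lay at a promoter, and scores ran from 65.9 to 2669 with a median of 138. The shared site was also the strongest and the most distal upstream. The DP peak from 162928187 to 162930188 scored 2669 and ranked 399, and the iNKT peak from 162928398 to 162929557 scored 129 and ranked 389 of 1516, 99.9 kb upstream of the start site.

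The next Tox2 peaks were in the DP list alone. An upstream peak from 162946149 to 162947939 scored 930 at 81.8 kb, and an intronic peak from 163078439 to 163079959 scored 767 at 50.3 kb inside the gene. The most distal DP peak of Tox2, from 163148734 to 163149178, lay in untranslated sequence at the 3′ end of the body, 120 kb from the start site, and scored 71.8. Tox2 had the highest share of DP peaks with CAGGTG in the 200 bp at the midpoint, at 6 of 10, but the count is too small to rank the loci by it.

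Myb (ENSMUSG00000019982.7) lies on the minus strand at chr10:20844736-20880790, between Ahi1 and Hbs1l, in a locus of 216 kb. Of its 14 DP peaks, 8 lay upstream, 4 downstream past the end of the gene and 2 in introns near the start. Scores ran from 55.4 to 3100 with a median of 153, and 4 peaks scored 1000 or more, all outside the body.

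Both iNKT peaks of Myb were shared, and they were the highest and the third highest of the 11 by rank. The site past the 3′ end, 68.0 kb downstream of the start site, scored 3100 in the DP list (20811383 to 20814293) and 399 in the iNKT list (20811951 to 20813695), where it ranked 76 of 1516. The upstream site, 62.7 kb away, scored 988 in the DP list (20942341 to 20944685, rank 1688) and 223 in the iNKT list (20942855 to 20944171, rank 168). A DP peak of 2741, between them in score, from 20954353 to 20956193 at 74.5 kb upstream, had no iNKT peak. The sequence of this site, printed for comparison with the shared ones, also held both E-boxes.
Myb, DP list alone, chr10:20955134-20955233: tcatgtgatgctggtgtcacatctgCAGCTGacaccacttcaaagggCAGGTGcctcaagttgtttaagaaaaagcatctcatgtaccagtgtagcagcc

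Near the start of Myb, E2A peaks scored close to the median of 141 of the DP list. The promoter peak from 20879278 to 20880486 scored 129, with its midpoint 0.908 kb inside the gene, and the adjoining intronic peak from 20877207 to 20879207 scored 151. The most distal DP peak, from 20971417 to 20972732, scored 1081 at 91.3 kb upstream.

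Gfi1 (ENSMUSG00000029275.10) lies on the minus strand at chr5:108145674-108155056 in the shortest locus, 83.0 kb between Rpap2 and Evi5. GENCODE M1 annotates it as a processed transcript and the RefSeq table as protein-coding, and it was kept as a named gene. Its 11 DP peaks were the densest set, at 13.3 per 100 kb, and the Gfi1 start site was the nearest protein-coding start for all 11. Scores ran from 50.2 to 3100 with a median of 356.

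Gfi1 was the only one of the 6 genes with an iNKT peak in its body. The DP peak from 108145881 to 108149646, in an intron 7.29 kb from the start site, was 3766 bp wide and scored 3100. The iNKT peak inside its limits, from 108146477 to 108147860, scored 238 and ranked 157 of 1516. A DP peak 12.8 kb upstream, from 108166725 to 108168906, scored 2716 and ranked 383 but had no iNKT peak. Its sequence is printed because it held 3 E-boxes in 100 bases.
Gfi1, DP list alone, chr5:108167502-108167601: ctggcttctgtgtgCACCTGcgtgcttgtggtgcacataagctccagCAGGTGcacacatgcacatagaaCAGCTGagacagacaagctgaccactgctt

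At the Gfi1 promoters, 3 DP peaks were found. The peak from 108153841 to 108155787 scored 705, the second highest promoter score of the 6 genes after Satb1, and had its midpoint 0.242 kb inside the gene, in sequence that the lincRNA model A430072P03Rik also covers. The others, from 108152117 to 108153753 and from 108155886 to 108156577, scored 117 and 50.2. The most distal DP peak, 38.0 kb downstream, scored 366.

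**Figure D2:**
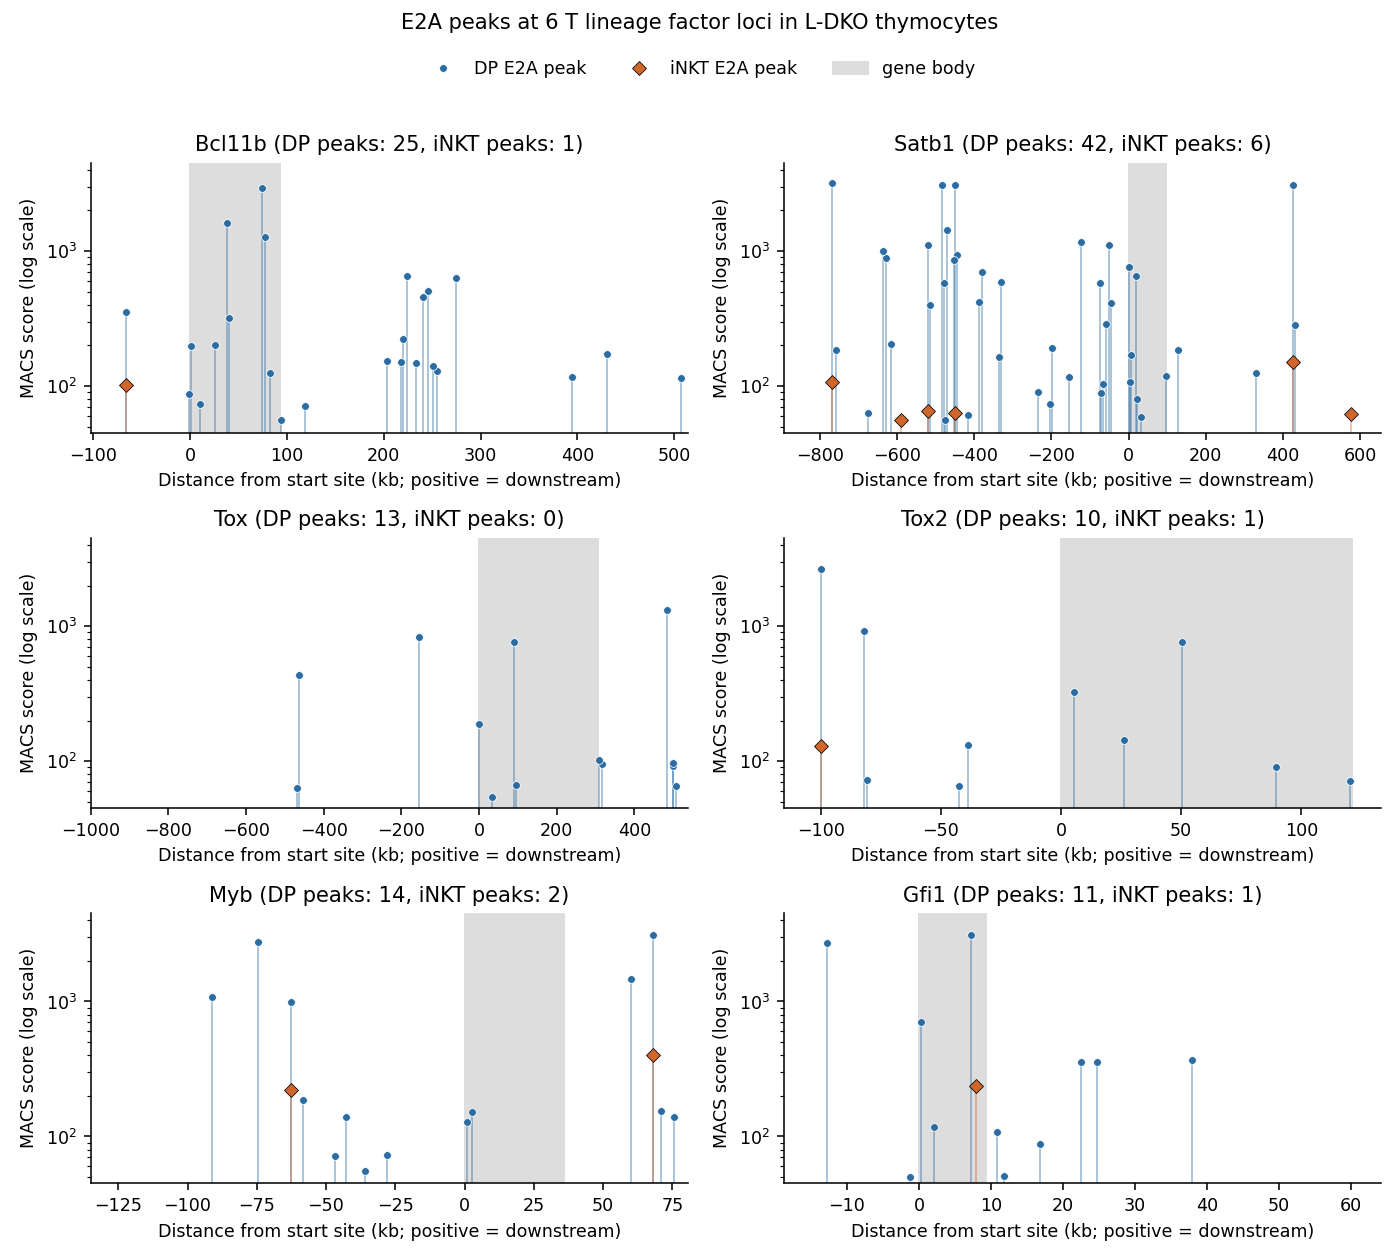
MACS score (log scale) of every E2A peak at the 6 loci against the distance of its midpoint from the start site in kb, positive in the direction of transcription, for DP peaks (circles) and iNKT peaks (diamonds), with the gene body in grey. Each panel spans its whole locus, so the scales of distance differ. Strong DP peaks lie outside the gene body at Satb1, Tox2 and Myb and inside it at Bcl11b, and most iNKT peaks stand over a DP peak.

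Across the loci, all 6 had a DP peak, beside 37.3% of the 22350 protein-coding loci built by the same rule. All 6 had at least 10, beside 2.03%, but not under other limits: where genes of any type ended a locus, Tox had 6 DP peaks, Tox2 7 and Gfi1 9, with 14 at Bcl11b, 12 at Myb and 36 at Satb1, and with a reach of 100 kb Tox had 6. By number of DP peaks, Satb1 ranked 4, Bcl11b 40, Myb 159, Tox 197, Gfi1 301 and Tox2 364 among the 22350 loci. Long loci hold more peaks, and the positions of all but Gfi1 fell when the number was divided by length. For Gfi1 the share of loci with fewer DP peaks was 98.4%, and the share with a lower density was 98.5%. The share with a lower density was 94.3% for Myb, 88.9% for Bcl11b, 88.8% for Tox2, 83.5% for Satb1 and 70.1% for Tox. By peaks in the gene body alone, the share with fewer was 99.3% for Bcl11b, 98.6% for Satb1, 98.0% for Tox2, 97.1% for Tox, 95.3% for Gfi1 and 91.6% for Myb.

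For iNKT peaks, 5 of the 6 loci had at least 1, beside 7.98% of all loci, and the same 5 had a shared site, beside 5.66%. It was 4 of the 6 where genes of any type ended a locus, without Tox2, and 4 with a reach of 100 kb, without Satb1. In gene bodies only Gfi1 had an iNKT peak, and at a score of 200 or more only Myb and Gfi1. The share of all loci with an iNKT peak was not computed under these limits. The 6 iNKT peaks of Satb1 were reached by 0.0134% of the other loci, and the 2 of Myb by 1.4%. Over the 6 loci, 4 of the 11 iNKT peaks had the start site of the named gene as their nearest, 2 at Myb and 1 each at Bcl11b and Gfi1.

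**Figure D3:**
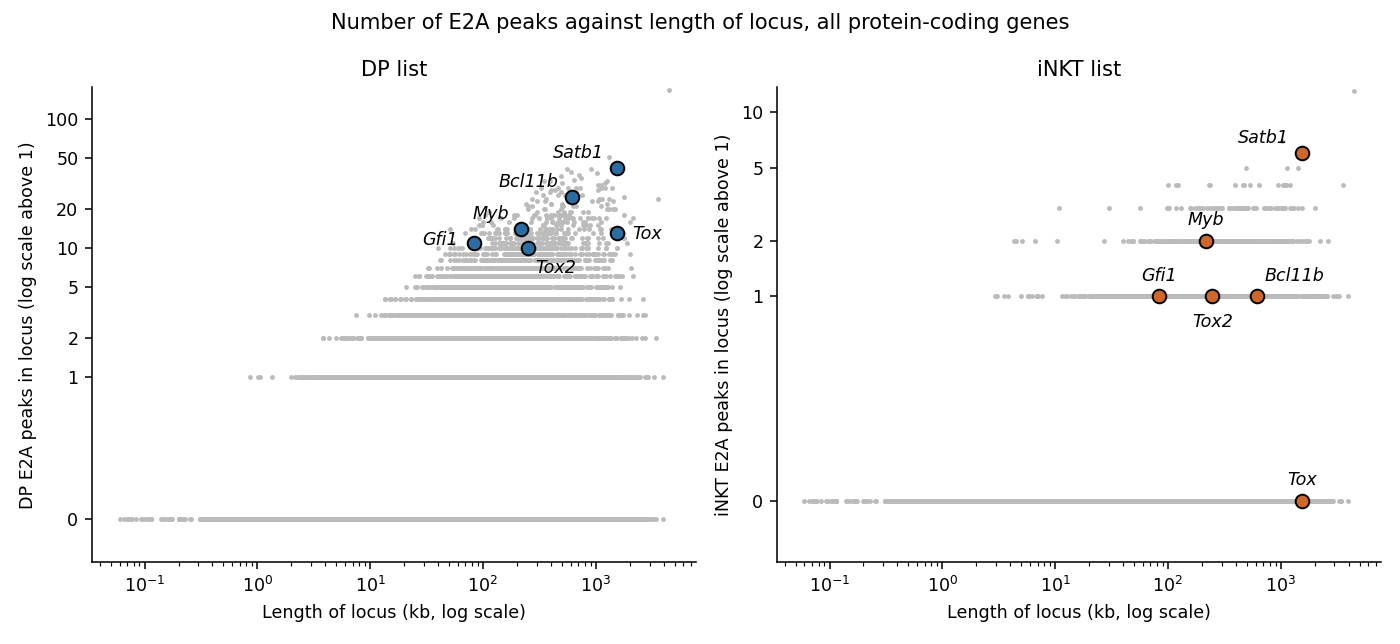
Number of DP peaks (left) and iNKT peaks (right) in each of the 22350 protein-coding loci (grey) against the length of the locus in kb, both axes logarithmic with 0 shown, and the 6 loci in colour. Of the 6, Gfi1 and Myb have the most DP peaks for their length, while Tox lies well below Satb1 at nearly the same length, and at 0 in the iNKT list.

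The rule fills a locus with sequence between protein-coding genes, so the places of the DP peaks are a description only. By midpoint, 51 lay upstream of their gene, 36 downstream, 23 in introns, 3 in untranslated regions of exons, 2 in exons of the Gfi1 transcripts and 0 in coding exons, and 53 of the 115 lay more than 100 kb from the start site. GENCODE M1 gives Gfi1 as a processed transcript, so its exon peaks could not be called coding. Some of those outside the gene body had their midpoints in non-coding or other gene models, such as the 7 in Gm15208. The gene's own start was the nearest protein-coding start for 82. At the promoter, within 1 kb of a transcript start of the gene, lay 11, which is 9.57% (5.43 to 16.3) beside 21.7% of all DP peaks within 1 kb of any start. A locus ends at the next protein-coding gene, and what that rule contributes to the difference was not tested. The 11 iNKT peaks included 0 at a promoter, which at this count allows a share of up to 25.9%, beside 10.8% of all iNKT peaks within 1 kb of any start.

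The scores of the DP peaks were also set beside those of the whole list. The median DP score was 185 (interval of the median 144 to 355) beside 141 over all DP peaks, and 16.5% (10.8 to 24.4) scored 1000 or more beside 9.51%. A score of 100 or more was reached by 74.8% beside 62.6%. Of the 11 iNKT peaks, 7 reached 100, 63.6% (35.4 to 84.8), beside 36.6% of their list, and 0 reached 1000, beside 1.06%. The median was 151 (129 to 320, n = 73) without Satb1, 155 (119 to 320, n = 67) with a reach of 100 kb and 179 (117 to 659, n = 28) in gene bodies, and all of these intervals held the median of all DP peaks. Where only neighbours that RefSeq lists as protein-coding ended a locus, the median was 187 (150 to 287, n = 140). That interval, like the one under the main rule, lay above the median of all DP peaks. The DP peaks were 1171 bp wide at the median, beside 984 bp, and the 200 bp at their midpoints had a lower GC content, with quartiles of 42.8% and 51.5% beside 46.0% and 56.0%.

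Sharing with the iNKT list followed the DP score. Of the 115 DP peaks, 9 overlapped an iNKT peak, 7.83% (4.17 to 14.2), beside 5.99% of all DP peaks. The 9 had a median score of 3100, from 355 to 3219, and the other 106 a median of 166. No overlap was found among 29 peaks scoring under 100 or among 37 scoring from 100 to 300. From 300 to 1000 it was 6.67% of 30 (1.85 to 21.3), and from 1000 it was 36.8% of 19 (19.1 to 59.0). The same classes over all DP peaks gave 1.22%, 2.66%, 8.21% and 31.9%, each within the interval of the members.

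No motif core stood out from the list by more than counting error. CAGGTG on either strand was present in the 200 bp at the midpoint of 45 of 115 DP peaks, 39.1% (30.7 to 48.3), beside 43.9% of all DP peaks. Over whole peaks it was present in 93, 80.9%, beside 79.0%. The number by locus was 17 of 42 at Satb1, 8 of 25 at Bcl11b, 6 of 14 at Myb, 6 of 10 at Tox2, 4 of 13 at Tox and 4 of 11 at Gfi1. The most copies in 1 DP peak was 6.

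Cores bound by other T lineage factor families were searched in the same 200 bp on both strands. ACCACA, the Runx core, was in 27.8% (20.5 to 36.6) of the member DP peaks beside 23.8% of all, GGAAGT, the Ets core, in 23 of 115 beside 21.3%, and TCAAAG, the Tcf7 and Lef1 core, in 13.9% beside 17.4%. TTATCT, the Gata core, was in 5.22% (2.41 to 10.9) beside 8.89%, and CAGCTG in 26.1% beside 29%. With CAGGTG or CAGCTG counted, it was 55.7% beside 60.8%. All of these list-wide shares lay within the interval of the members. A match is a word in the sequence and not a shown site of binding.

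**Figure D4:**
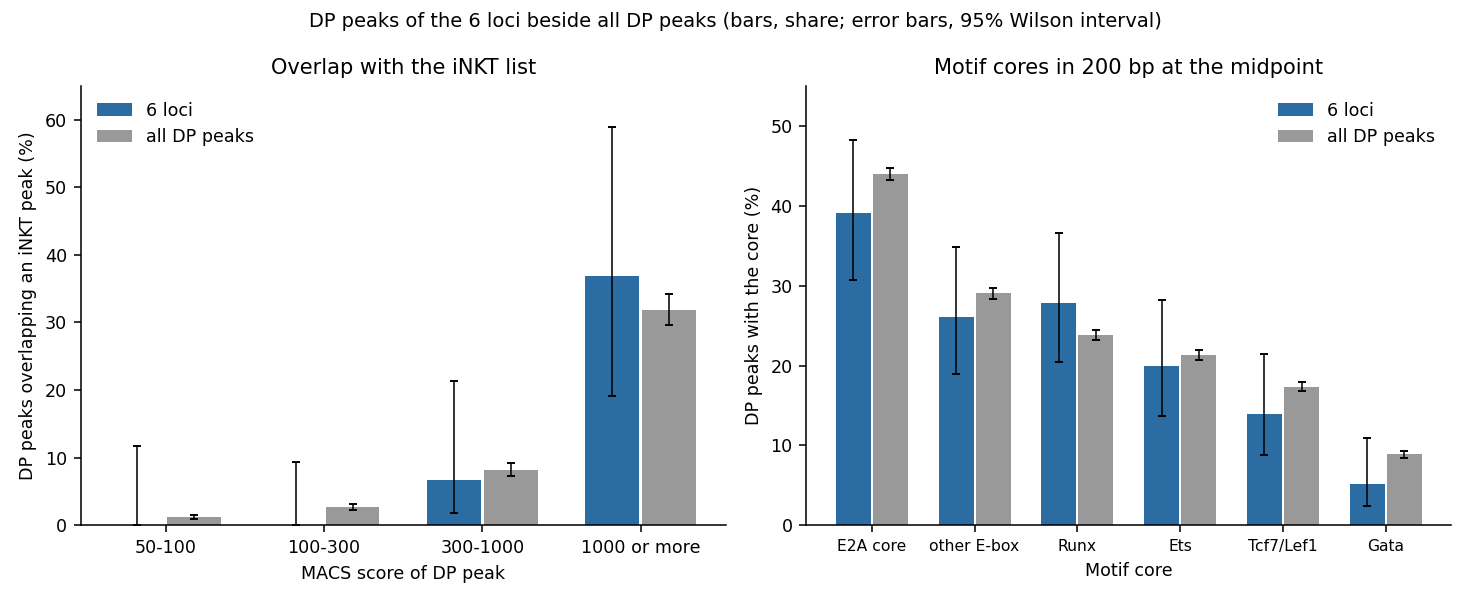
Left, percent of DP peaks shared with the iNKT list by class of DP score, and right, percent with each motif core in the 200 bp at the midpoint, for the 115 peaks of the 6 loci and all 17532 DP peaks (error bars, 95% Wilson intervals for counting error). Sharing rises with score in both sets, to 36.8% and 31.9% in the class of 1000 or more, and the intervals of the 6 loci hold the list-wide share in every class and for every core.

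Other genes of the T lineage were looked up by the same rule. Of 18 listed regulators, 17 had a DP peak, beside 37.3% of all loci, and 11 an iNKT peak, beside 7.98%. Their median was 12.5 DP peaks, beside 13.5 for the 6 genes and 0 for all loci. Lef1 had 32 DP peaks, Ets1 29, Runx1 28 and Tcf7 19. Tcf12 had 6, Ikzf2 and Notch3 5 each, Zbtb7b 4 and Tcf3 1, and Cbfb, the partner subunit of Runx proteins, had none. Among those with a peak, the DP peaks per 100 kb ran from 0.696 at Ikzf2 to 16.7 at Tcf7. Of 11 regulators of earlier progenitors found by symbol, 4 had a DP peak, beside 37.3% of all loci, and 2 an iNKT peak, beside 7.98%, with a median of 0 DP peaks. The 4 of 11 are near the share of all loci. The T lineage list was chosen with earlier results on several of its genes known, so its counts are no independent support.

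Each of 6 paralogs described here had fewer peaks than any of the 6 genes by number, but not by density. Bcl11a, a B cell and erythroid regulator, had 1 DP peak of score 71.5 in a locus of 1099 kb. Tox3 had 3 in 1582 kb, a locus longer than that of Tox, Tox4 none in 17.2 kb, and Mybl1 and Mybl2 none. Gfi1b, a relative of Gfi1 that acts in erythroid and megakaryocytic cells, had 6 DP peaks in 57.5 kb, with a highest score of 589. At 10.4 DP peaks per 100 kb it was denser than all of the 6 genes but Gfi1. Of the 6, 3 had a DP peak, beside 37.3% of all loci, and 0 an iNKT peak, beside 7.98%.

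The loci most like each gene in the numbers of DP and iNKT peaks were also identified. Pik3r1, which encodes a regulatory subunit of PI3 kinase, was the only locus with the 25 and 1 of Bcl11b. No locus matched Satb1, and the nearest was Id2, with 38 and 7. Ablim1, B4galt1 and Rbm38 were among 5 loci that matched Myb at 14 and 2. St6gal1, Thbs1 and Thy1 were among 28 loci that matched Tox2, Auh, Klhl25 and Arid2 among 16 that matched Tox, and Cdk17 among 25 that matched Gfi1.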

How the data were processed

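E2A ChIP-Seq of L-DKO DP and iNKT thymocytes was used, with 1 E2A and 1 input library per cell type. Alignment to mm9 was done by the authors with Bowtie 1.1.2, which kept only uniquely placed reads, and MACS 1.4.2 with default parameters gave the peaks. The deposited lists give each peak's position and score, which is 10 times the negative log10 of the MACS p-value. Depth is unknown and repeated sequence is under-represented. Reads and inputs were not analysed here.

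Gene bodies and transcript starts were taken from GENCODE M1 on NCBIM37, the assembly of mm9. A locus was the gene body with up to 1 Mb on each side, ending at the next protein-coding body. Peaks were placed by midpoint, and lists were compared by an overlap of at least 1 bp. A peak was at a promoter when any part of it, not its midpoint, lay within 1 kb of a transcript start. Motifs were searched in 200 bp at the midpoint. Shares have 95% Wilson intervals and medians order-statistic intervals. No statistical test was made, since each cell type had 1 E2A library. RefSeq gene names (GRCm38.p6) were used without coordinates.

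For each gene every iNKT peak, every shared peak, and the highest, the most distal and the promoter DP peaks are given. Other peaks that are named, and those past 3110018I06Rik, were chosen after their values were seen. The genes, lists and comparisons were chosen with earlier results of these data known. On simulated peaks and sequence, 14 of 14 checks recovered the known answers. Alternatives were another reach, gene type, score minimum, overlap, motif window and promoter, and, chosen after seeing the data, RefSeq-supported neighbours and omission of Satb1. The work used scipy 1.17.1, pandas 2.3.3, numpy 2.4.6 and matplotlib 3.10.9 in Python 3.11.15. Another gene looked up by the same rule is not reported here.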

Additional observations from a re-analysis of the deposited data

How the results depend on the processing

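For the 8 results over the 6 loci, 40 alternative values were computed and 24 stayed within the counting error or within 1.5 times. The number of DP peaks was 67 with a reach of at most 100 kb, 28 in gene bodies only and 54 at a score of 200 or more, against 115, and it was 84, with 8 iNKT peaks, where genes of all types ended a locus. The number of iNKT peaks was 5 with that reach, 1 in gene bodies, 7 at a score of 100 or more and 3 at 200 or more, against 11. The share of DP peaks overlapping an iNKT peak rose from 7.83% to 36.8% when the DP list was limited to as many top peaks as the iNKT list has, which keeps 19 of the 115. Of all DP peaks scoring 1000 or more, 31.9% overlapped an iNKT peak. All iNKT peaks left overlapped a DP peak, 100%, at a score of 100 or more in both lists and with a reach of 100 kb, because the 2 Satb1 peaks without a DP peak drop out, and the share fell from 81.8% to 54.5% when the overlap had to span 50% of both peaks and to 63.6% with the limited DP list. The share of the whole iNKT list was not computed under these settings, so these values are not set against it. CAGGTG was found in 80.9% of whole DP peaks and 70.4% of 500 bp windows, and CAGGTG or CAGCTG in 55.7% of 200 bp windows, beside 79.0%, 65.7% and 60.8% of all DP peaks. Promoter DP peaks were 7 rather than 11 around the 5′ end of the gene body alone. The median over the 6 loci of the share of loci with fewer DP peaks was 99.0%, and it was 88.8% by peaks per 100 kb and 97.5% by the gene body. With RefSeq-supported neighbours only, chosen after seeing the data, the loci held 140 DP and 12 iNKT peaks, the added ones at Bcl11b, which then had 50 DP peaks, more than the 42 of Satb1. No paired analysis was possible because each cell type has 1 E2A library and no result comes from a test. What the depth of the libraries contributes to the smaller iNKT list was not tested.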

Other observations

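Among the progenitor regulators, Mef2c had 2 iNKT peaks and 0 DP peaks in a locus of 1719 kb, while at the 6 T lineage genes iNKT peaks without a DP peak were found only at Satb1. Meis1 had 3 DP peaks and 1 iNKT peak, which overlapped a DP peak, in 1970 kb. Erg had 10 DP peaks, with a highest score of 309, and no iNKT peak.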
